A study of Rattus norvegicus with 12 samples.

Results

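In esophageal tissue of rats, 298 regions of messenger RNA carried a peak of N6-methyladenosine (m6A) in all 3 untreated samples and in none of the 3 samples taken after surgery, although each of the 6 samples had at least 1 m6A peak on the same gene. The surgical group, BE, had esophagoduodenostomy (EDA), an operation that opens the esophagus to duodenal reflux and serves to model Barrett's esophagus in rats. The NC group had no treatment. The labels give no strain, age or time after surgery and do not tie samples to animals, so the spread behind each p-value may be technical. Each sample gave 2 libraries, 12 in all. The input library was deposited as gene counts, with 15543460 to 17471748 counts per BE library and 11213531 to 16863737 per NC library. The m6A immunoprecipitate (IP) was deposited as a list of peaks, and its depth is unknown.

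The 113141 peaks of the 6 IP lists were joined into 29269 regions wherever they shared at least 1 base. A region was called NC-only when all 3 NC lists and no BE list had a peak on it, which held for 755 regions. Of these, 298 lay on a gene that had at least 1 peak in each of the 6 lists, and they are the regions described here. They made up 1.02% of all regions and fell on 245 genes, 3.59% of the 6822 genes with a peak in every list. The remaining 457 NC-only regions lay on genes without a peak in at least 1 list and were not used. The regions were chosen by the presence and absence of listed peaks, so that pattern is a description and was not tested.

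m6A is placed on messenger RNA by a methyltransferase complex built on METTL3 and METTL14, most often near stop codons, in 3′ untranslated regions and in long internal exons. The demethylases FTO and ALKBH5 can remove it, and reader proteins of the YTH family bind it and act on splicing, translation and decay of the transcript. A gene can carry several methylated sites, so a site can be lost while others on the same transcript remain. In MeRIP-seq, the method used here, a peak is a stretch of RNA with more IP than input reads, and its width is set by fragment size and by exon borders rather than by the methylated base itself.

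A defining marker of squamous esophagus was present in both groups. Krt4, a keratin of squamous esophageal epithelium, stood at 26200, 24100 and 25200 CPM in BE replicates 1 to 3 and at 15700, 21800 and 19600 CPM in NC replicates 1 to 3. CPM here are counts scaled to library size with edgeR's TMM factors. Without these factors, BE over NC values would be a median of 0.28 higher on the log2 scale. Striated muscle, which forms the wall of the rat esophagus, was far less represented in BE: the summed level of a striated muscle list was 8401 to 10950 CPM in BE and 155400 to 185700 CPM in NC. In tissue RNA, fewer cells of a type and less RNA per cell cannot be told apart. BE replicate 1 stood apart from the other BE input libraries, with a chi-square of 73.4 and 77.1 per gene against them, where other pairs within a group had 19.9 to 27.7.

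As a description, the NC-only regions were weaker and narrower than regions found in all 6 lists. The contrast is partly fixed by construction. A weak peak more readily misses a list, and joining peaks of 6 lists can widen a region. Where a region had several peaks in a list, the highest value counted. The median fold enrichment of NC-only regions, the authors' own value for each peak, was 9.75, 7.20 and 7.91 in NC replicates 1 to 3. For the 11149 regions in all 6 lists on such genes it was 16.9, 13.2 and 15.8. Ranked among all peaks of a list, with 100 as the strongest, NC-only regions had a median percentile of 31.8, 37.6 and 29.2 in the 3 NC lists. Averaged over the 3 lists, 73 regions reached the 50th percentile, 27 the 75th and 11 the 90th. In 140 regions (47.0%) the lowest of the 3 NC scores, each 10 times the negative log10 of the caller's p, was under 100, against 10.2% of regions in all 6 lists. The lists start at a score of 50, and 47 of the NC-only regions had a score under 60 in at least 1 NC list. Their median width was 170 bp, with a middle range of 118 to 368.5 bp, compared with 157 bp for BE-only regions on such genes and 495 bp for regions in all 6 lists. In 260 regions (87.2%) the 3 NC lists gave the same start and the same end to the base, as did 82.3% of regions in all 6 lists.

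**Figure D1:**
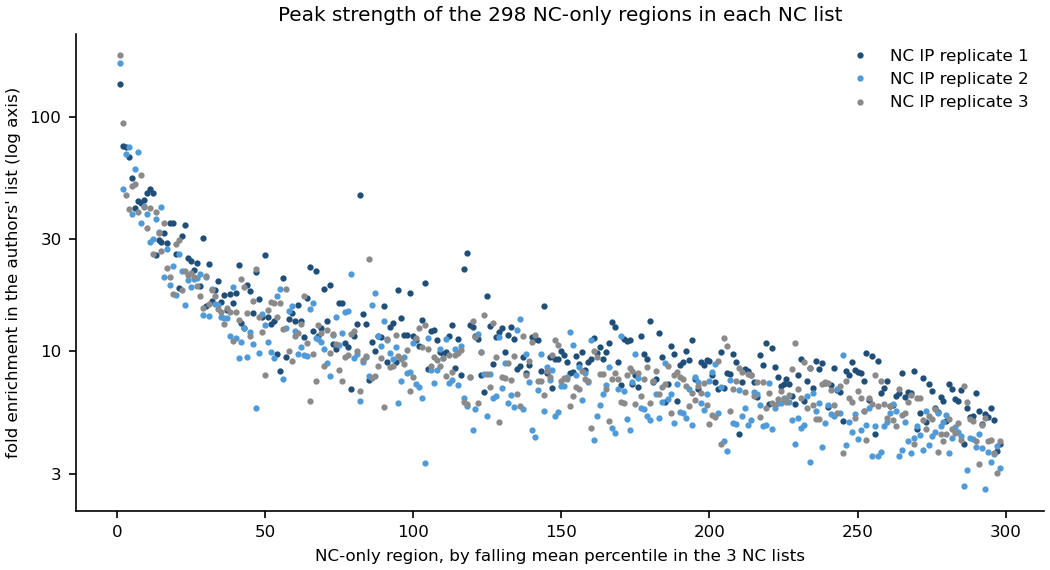
Fold enrichment of each NC-only region (log axis) in the lists of NC replicates 1 to 3 (colours), with regions in order of falling mean percentile along the horizontal axis. The first region, on Dynll1, reached 138.40 to 182.30, while most regions lay near the medians of 7.20 to 9.75.

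The lists hold only part of what the caller numbered, and this bears on every absence. Peak names carry a running number in genome order whose highest value was 41815 to 49813 in the BE lists and 40887 to 54683 in the NC lists, while the lists held 19329 to 20531 BE peaks and 16644 to 18864 NC peaks. For 32 NC-only regions (10.8% of 297 with a listed BE peak on either side) the BE peaks on either side had consecutive numbers in all 3 BE lists, so no unlisted number fell there. For 204 regions at least 1 unlisted number fell between those neighbours in every BE list, and 61 were mixed. Where the unlisted numbers lie is not recorded in the lists, and their part in the absence of BE peaks was not tested. The 32 regions had a median percentile of 48.3 and lay on 27 genes.

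The strongest NC-only region lay on Dynll1, which encodes the dynein light chain LC8, a hub protein that binds many partners. The region (chr12:48867785-48867922, genome build not stated in the labels or lists) had a fold enrichment of 138.40, 168.85 and 182.30 in NC replicates 1 to 3, at or above the 99.5th percentile of each list. A further region 1555 bp away, chr12:48869478-48869889, carried a peak in all 6 lists. Its fold enrichment was 77.40, 87.14 and 121.27 in BE and 26.84, 16.09 and 22.72 in NC, so within each NC list the NC-only region was the stronger of the pair. Fold enrichments come from lists made separately and are set side by side here, not compared between lists. Dynll1 RNA, counted over the whole gene, stood at 389, 371 and 337 CPM in BE and 188, 220 and 203 CPM in NC, with no overlap. Its log2 fold change was 0.85 (SE 0.11, adjusted p = 0.000145, edgeR).

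Skil encodes SnoN, a co-repressor of SMAD proteins in TGF-beta signalling. Its NC-only region (chr2:135562877-135563035) had a fold enrichment of 75.12, 49.09 and 94.13 in NC replicates 1 to 3. The 3 regions of Skil that all 6 lists shared began 1457 bp away, and the nearest of them had a fold enrichment of 60.68, 50.74 and 55.06 in BE and 49.96, 46.79 and 70.80 in NC. RefSeq's strand for Skil puts the NC-only region last, nearest the 3′ end, of its 5 regions. Skil RNA stood at 67.2, 61.8 and 51.9 CPM in BE and 39.9, 45.6 and 35.7 CPM in NC, a log2 fold change of 0.58 (SE 0.15, adjusted p = 0.011, edgeR).

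Other regions among the 10 strongest lay on genes of quite different kinds. Oard1, Polr3d, Fig4 and Pcyox1 had RNA that did not pass the test, Pla2g4f and Tubb6 were higher in BE, and Tnnt3 and Tppp were lower. Tnnt3, the troponin T of fast skeletal muscle, had 109, 100 and 143 CPM in BE and 2860, 2530 and 2370 CPM in NC, a log2 fold change of -4.46 (SE 0.17, adjusted p = 7.59e-08, edgeR). Its NC-only region (chr1:222578180-222578418) had a fold enrichment of 43.05, 35.09 and 56.56 in NC replicates 1 to 3, and the same gene held 3 BE-only regions and 2 regions found in all 6 lists. Tppp, which promotes tubulin polymerization, had only 12, 3 and 2 counts in BE libraries and 179, 194 and 153 in NC libraries. A region of Tppp was nevertheless listed in all 6 samples, with a fold enrichment of 8.02, 10.23 and 8.81 in BE and 13.74, 9.88 and 14.47 in NC, while its NC-only region (chr1:33315265-33315340) had 47.52, 38.63 and 33.62 in NC replicates 1 to 3.

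Some NC-only regions lay on genes without a called change in RNA, counted over the whole gene. On 53 genes, each with 1 NC-only region, input RNA changed by less than 1.5-fold and did not pass the test. Their log2 fold changes lay between -0.56 and 0.57. Genes that did not pass were less frequent here than elsewhere. They made up 67 of the 240 tested genes with NC-only regions (27.9%), against 57.0% of the other genes with a peak in every list. The 8 whose regions ranked highest were Oard1, Polr3d, Fig4, Pcyox1, Pcnxl3, Leng1, Otop3 and Fzr1. A p that misses the threshold does not show equal levels, so the values in each library are given for these genes.

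Oard1 encodes an ADP-ribose hydrolase that strips ADP-ribose from modified proteins. Its 575 bp NC-only region (chr9:13467179-13467753) had a fold enrichment of 74.35, 69.56 and 46.48 in NC replicates 1 to 3. The other Oard1 region, 5850 bp away, was in all 6 lists at 6.23, 12.65 and 6.91 in BE and 6.32, 5.10 and 5.71 in NC. By RefSeq's strand the NC-only region is the one nearer the 3′ end. Oard1 RNA was at 8.78, 12.2 and 10.2 CPM in BE and 11.7, 8.39 and 7.39 CPM in NC, and the groups overlapped (log2 fold change 0.19, SE 0.28, adjusted p = 0.623, edgeR).

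Polr3d encodes a subunit of RNA polymerase III, the enzyme that makes transfer RNA. Its NC-only region (chr15:55857227-55857396) reached a fold enrichment of 67.65, 74.02 and 40.28 in NC replicates 1 to 3. A second Polr3d region 3464 bp away stood at 20.86, 30.80 and 28.66 in BE and 14.48, 13.16 and 10.18 in NC, below the NC-only region in each NC list. Polr3d RNA was measured at 33.9, 38.6 and 37.4 CPM in BE and 50.9, 45.0 and 40.5 CPM in NC, which did not overlap, with a log2 fold change of -0.31 (SE 0.14, adjusted p = 0.106, edgeR).

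Pcyox1, which encodes prenylcysteine oxidase, carried 3 regions in all 6 lists and 1 that was NC-only. The NC-only region (chr4:182769128-182769279) had a fold enrichment of 43.88, 70.92 and 39.33 in NC replicates 1 to 3 and was the strongest of the 4 in each NC list. It lay first on RefSeq's strand, nearest the 5′ end, and 848 bp from the next region. That neighbour had 12.76, 29.80 and 23.44 in BE and 17.89, 23.99 and 15.13 in NC. Pcyox1 RNA was at 101, 123 and 104 CPM in BE and 118, 130 and 127 CPM in NC, with overlapping groups (log2 fold change -0.19, SE 0.12, adjusted p = 0.221, edgeR).

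In Fig4 and Fzr1 an NC-only and a BE-only region lay close together. Fig4 encodes a phosphatase of endosomal phosphoinositides. Its BE-only region (chr20:47701168-47701320) had a fold enrichment of 36.97, 22.82 and 43.34 in BE replicates 1 to 3, and its NC-only region 369 bp away (chr20:47700701-47700798) had 40.69, 59.68 and 51.51 in NC replicates 1 to 3. Fig4 RNA stood at 22.7, 27.0 and 17.9 CPM in BE and 41.5, 24.1 and 29.9 CPM in NC, with overlapping groups and a log2 fold change of -0.49 (SE 0.24, adjusted p = 0.122, edgeR).

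Fzr1 encodes CDH1, an activator of the anaphase-promoting complex, which marks mitotic proteins for destruction. Its BE-only region (chr7:11379268-11379501) had a fold enrichment of 15.07, 13.50 and 14.19 in BE replicates 1 to 3. The NC-only region (chr7:11380319-11380505), 817 bp away, had 22.31, 20.40 and 20.74 in NC replicates 1 to 3. Fzr1 had no other region, and the BE peaks on either side of the NC-only region had consecutive numbers in all 3 BE lists. Its RNA was at 14.2, 12 and 15.9 CPM in BE and 9.75, 12.2 and 12.4 CPM in NC, which overlapped (log2 fold change 0.29, SE 0.23, adjusted p = 0.340, edgeR).

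Leng1 showed the same absence of unlisted BE numbers around its NC-only region (chr1:63119164-63119335), which had a fold enrichment of 29.97, 32.38 and 31.95 in NC replicates 1 to 3. Its 3 other regions were in all 6 lists, and the NC-only region lay nearest the 5′ end of the 4. Leng1 was a low transcript, with 126, 54 and 92 counts in BE libraries and 65, 93 and 71 in NC libraries. For Otop3, a proton channel of the otopetrin family, the NC-only region (chr10:104393465-104394123) had 29.13, 41.04 and 26.80 in NC replicates 1 to 3, and a region in all 6 lists lay 606 bp away. Otop3 RNA was at 27.8, 31.1 and 28.2 CPM in BE and 17.3, 25.8 and 28.6 CPM in NC. For Pcnxl3, of the pecanex family, the NC-only region (chr1:227974063-227975190) was 1128 bp wide and had 25.81, 36.79 and 39.31 in NC replicates 1 to 3. Pcnxl3 RNA was at 42.3, 64.8 and 53.4 CPM in BE and 32.0, 38.7 and 46.6 CPM in NC, with a log2 fold change of 0.45 (SE 0.19, adjusted p = 0.0804, edgeR). Without BE replicate 1 it passed, at 0.62 (adjusted p = 0.0189).

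**Figure D2:**
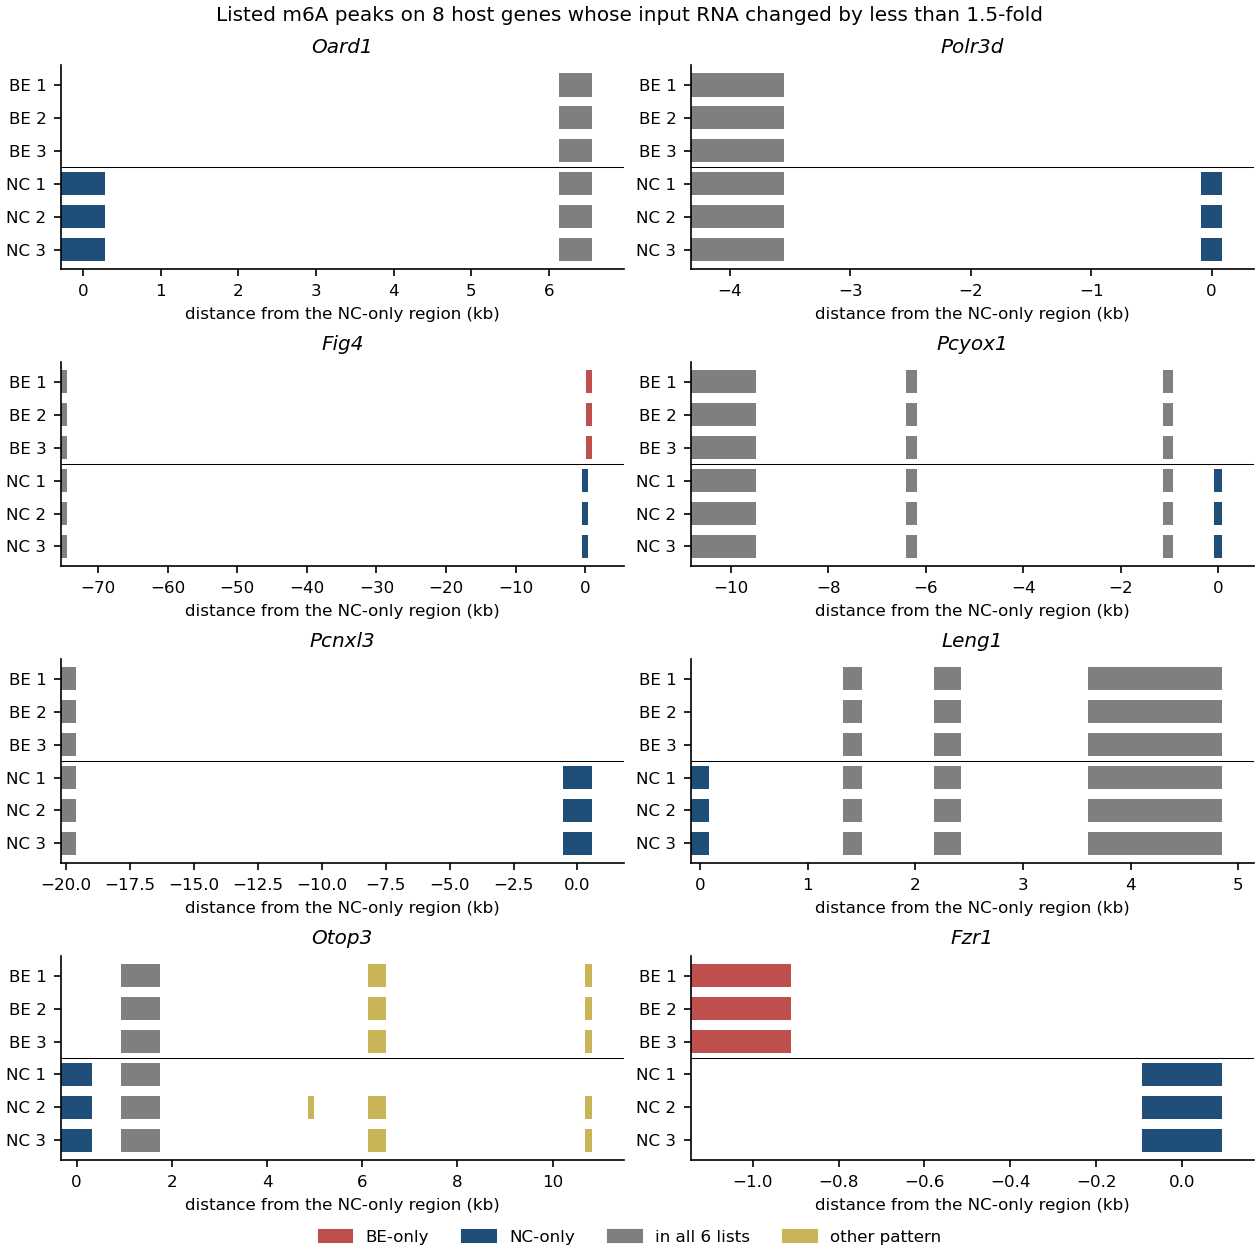
Listed m6A peaks on 8 genes whose input RNA changed by less than 1.5-fold and did not pass the test; the horizontal axis is the distance in kb from the centre of the NC-only region, the upper 3 rows are BE lists and the lower 3 rows NC lists. Blue bars are NC-only regions, red bars BE-only regions, grey bars regions in all 6 lists and yellow bars other patterns, with very narrow regions drawn wider than to scale so that they can be seen. Fig4 and Fzr1 show a red and a blue region side by side, 369 and 817 bp apart.

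Input RNA of the genes with NC-only regions, called host genes here, was mostly lower in BE. Of the 245 host genes, 242 were in the count table and 240 passed the filter on low counts. Among these 240, 137 (57.1%) were lower in BE and 36 (15.0%) higher, by edgeR's quasi-likelihood test with a Benjamini-Hochberg adjusted p under 0.05 over all 13761 genes tested, and 67 did not pass. Over all genes tested, 21.8% were called lower and 21.8% higher. At least 2-fold lower were 130 host genes (54.2%; 14.3% of all genes tested), and at least 2-fold higher were 18 (7.50%; 10.3% of all genes tested). The median log2 fold change was -1.45 over host genes and 0.03 over all genes. Without BE replicate 1, 141 host genes were lower and 37 higher.

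Among genes with BE-only regions, 28 of which were also host genes, 106 of 629 were lower and 239 higher, with a median log2 fold change of 0.32. Of all genes with a peak in every list that had no NC-only region, those with BE-only regions included, 1334 of 6155 were lower and 1311 higher. Host genes were also more often thinly covered in BE: 86 of 240 (35.8%) had under 100 counts in at least 1 BE library, against 20.1% of the other genes with a peak in every list. In NC, 40 host genes (16.7%) had a library under 100 counts, against 25.3% of those other genes. A peak needs reads to be called, and the part of lower BE coverage in the missing BE peaks was not tested. Keeping only the 158 NC-only regions with a score of at least 100 in each NC list, 78 of their 131 host genes (59.5%) were lower and 24 (18.3%) higher.

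**Figure D3:**
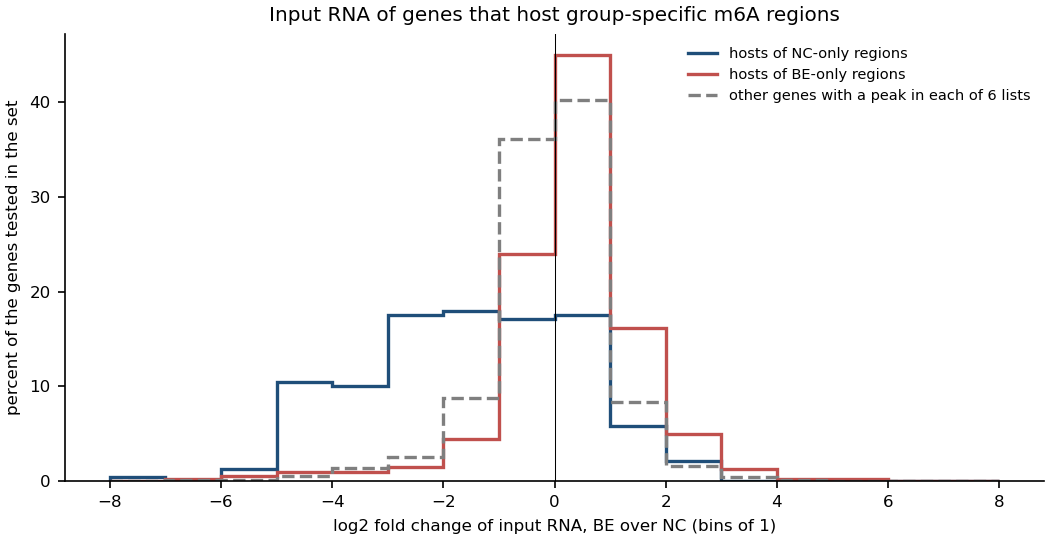
Log2 fold change of input RNA (BE over NC, bins of 1) on the horizontal axis and percent of the genes tested in each set on the vertical axis, for hosts of NC-only regions (blue, 240 genes), hosts of BE-only regions (red, 629 genes) and all genes with a peak in each of the 6 lists that are not hosts of NC-only regions (grey dashes, 6155 genes). The blue line is the highest in each bin between -5 and -1, with 10.4% of the hosts of NC-only regions between -5 and -4, and all 3 sets have genes between -1 and 1.

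Genes with several NC-only regions were nearly all lower in BE. In all, 204 host genes had 1 NC-only region, 31 had 2, 8 had 3, and Fhod3 and Kbtbd12 had 4. Of the 40 tested genes with 2 or more, 37 (92.5%) were lower, 1 (2.5%) was higher and 2 did not pass. Over all genes tested, 21.8% were lower and 21.8% higher. The median log2 fold change of the 40 was -3.27.

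Fhod3 encodes a formin that assembles actin in sarcomeres. Its 4 NC-only regions had mean percentiles from 17.0 to 79.0. The strongest (chr18:17083698-17083859) had a fold enrichment of 30.99, 22.09 and 18.32 in NC replicates 1 to 3, while 3 regions in all 6 lists remained on the gene. Fhod3 RNA stood at 11.9, 16.1 and 10.2 CPM in BE and 121, 90.4 and 84.5 CPM in NC, a log2 fold change of -2.95 (SE 0.21, adjusted p = 4.56e-06, edgeR).

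Kbtbd12, of the kelch-BTB family, had 4 NC-only regions and 1 region in all 6 lists. The strongest of the 4 in mean percentile (chr4:185736887-185737080) had a fold enrichment of 8.75, 7.44 and 9.13 in NC replicates 1 to 3, and the shared region, 1093 bp wide, had 9.35, 7.87 and 8.93 in BE and 21.27, 14.43 and 18.25 in NC. Kbtbd12 had 45, 28 and 57 counts in BE libraries and 451, 646 and 544 in NC libraries. No unlisted number fell at any of its 4 NC-only regions in any BE list.

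Slc8a3, the sodium-calcium exchanger NCX3, had 3 NC-only regions. The strongest (chr6:113244138-113244454) had a fold enrichment of 49.38, 29.15 and 40.66 in NC replicates 1 to 3 and lay nearest the 5′ end of its 5 regions, and another (chr6:113051624-113053587), 1964 bp wide, lay nearest the 3′ end. Slc8a3 had 2.72, 1.72 and 4.55 CPM in BE and 75.4, 79.3 and 78.2 CPM in NC, a log2 fold change of -4.69 (SE 0.32, adjusted p = 8.69e-06, edgeR). Tmcc2, Txlnb (a taxilin of muscle) and Myh14 (the heavy chain of nonmuscle myosin IIC) also had 3 each. Their log2 fold changes were -2.95 for Tmcc2, -4.31 for Txlnb and -3.10 for Myh14, and all 3 passed the test. Myh14 kept 2 regions in all 6 lists among its 13 regions, and its NC-only regions lay in positions 1, 4 and 11 of the 13 from the 5′ end.

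The striated muscle list accounted for 11 host genes with 13 NC-only regions, all 11 of them lower in BE. Of its 78 tested genes, 71 were lower and 2 higher, with a median log2 fold change of -4.02. Over all genes tested, 21.8% were lower and 21.8% higher, which is the background for each gene list below too. Of the striated muscle list, 43 genes had a peak in each of the 6 lists. Besides Tnnt3, the hosts included Myom1, Klhl40, Synpo2, Svil, Speg, Ank1, Jph1, Jph2 and Srl. Klhl40, which stabilizes thin-filament proteins, had 3.29, 4.36 and 2.47 CPM in BE and 107, 73.5 and 80.1 CPM in NC. Synpo2, an actin-bundling protein of the Z-disc, had 27.4, 26.8 and 37.0 CPM in BE and 338, 300 and 286 CPM in NC. Its NC-only region (chr2:246663669-246663820) had a fold enrichment of 13.54, 10.42 and 13.12 in NC replicates 1 to 3, and 2 other Synpo2 regions were listed in all 6 samples, at 24.81 to 44.87 in BE and 34.78 to 47.76 in NC.

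The smooth muscle list gave 3 hosts with 4 NC-only regions: Synpo, Ppp1r12b and Jph2, the last of which is also on the striated muscle list. Of the 44 tested genes of that list, 31 were lower and 2 higher. Ppp1r12b, a regulatory subunit of myosin phosphatase, held the region ranked lowest of the 298 apart from that of Usp13 (chr13:56787140-56787270), with a fold enrichment of 3.75, 3.97 and 3.03 in NC replicates 1 to 3. Ppp1r12b RNA was at 62.4, 49.1 and 58.1 CPM in BE and 581, 541 and 484 CPM in NC. Jph2, a junctophilin that ties the plasma membrane to the sarcoplasmic reticulum, had 6.37, 9.34 and 12.1 CPM in BE and 118, 109 and 92.8 CPM in NC. Synpo, which encodes synaptopodin, an actin-associated protein, had 19.0, 16.9 and 34.0 CPM in BE and 148, 115 and 102 CPM in NC.

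The nerve and glia list gave 1 host, Mapt, with 3 NC-only regions. Mapt encodes tau, a microtubule-binding protein of axons. Its highest ranked NC-only region (chr10:92113999-92114760) had a fold enrichment of 16.06, 10.60 and 8.32 in NC replicates 1 to 3. A 2552 bp region of Mapt was in all 6 lists at 6.31, 12.14 and 17.26 in BE and 33.47, 55.66 and 37.98 in NC. Mapt RNA was at 2.46, 4.47 and 3.65 CPM in BE and 54.4, 50.1 and 40.4 CPM in NC. Of the 34 tested genes of the list, 20 were lower in BE and 1 higher.

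On 36 host genes RNA, counted over the whole gene, was higher in BE. Reads at their NC-only regions were not analysed here, and the cause of the absent BE peaks was not tested. The 37 NC-only regions on these 36 genes had a median percentile of 48.0, and the 186 regions on the 137 lower genes had 31.9. The 69 regions on the 67 host genes that did not pass also had 31.9. Log2 fold changes of the 36 ran from 0.37 to 2.74.

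Fabp5 had the largest change of the 36. It encodes the epidermal fatty acid binding protein and stood at 4240, 3930 and 4160 CPM in BE and 636, 666 and 551 CPM in NC, a log2 fold change of 2.74 (SE 0.12, adjusted p = 1.29e-07, edgeR). Its NC-only region (chr2:113738704-113738835) had a fold enrichment of 31.88, 20.71 and 35.41 in NC replicates 1 to 3. The only other Fabp5 region was in all 6 lists at 12.85, 15.06 and 14.92 in BE and 6.35, 2.77 and 6.09 in NC. Fabp5 had 81057, 68512 and 74025 counts in the BE input libraries and 6327, 9931 and 7673 in the NC input libraries. Input reads at the region itself were not analysed here.

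Tubb6, a beta-tubulin, had 104, 121 and 168 CPM in BE and 29.2, 37.2 and 27.6 CPM in NC, a log2 fold change of 2.06 (SE 0.20, adjusted p = 3.34e-05, edgeR). Its NC-only region (chr18:62315385-62315493) had a fold enrichment of 44.10, 41.64 and 41.37 in NC replicates 1 to 3 and lay nearest the 5′ end of 3 regions. The next region, 1483 bp away, was in all 6 lists at 52.77, 52.78 and 56.02 in BE and 10.40, 6.25 and 7.51 in NC.

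Pla2g4f, a cytosolic phospholipase A2, had no region in all 6 lists. A BE-only region (chr3:118622013-118622235) had a fold enrichment of 23.10, 30.68 and 24.08 in BE replicates 1 to 3, and the NC-only region 3834 bp away (chr3:118617958-118618178) had 54.82, 38.40 and 50.45 in NC replicates 1 to 3. Pla2g4f RNA was at 193, 318 and 253 CPM in BE and 66.1, 72.5 and 65.1 CPM in NC, a log2 fold change of 1.91 (SE 0.17, adjusted p = 1.94e-05, edgeR).

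The receptor tyrosine kinase list, which holds only some genes of that signalling, gave 2 hosts, both higher in BE. Ephb2, a receptor for ephrins, had 29.6, 28.4 and 27.0 CPM in BE and 14.1, 12.9 and 12.7 CPM in NC. Its NC-only region (chr5:158789192-158789309) had a fold enrichment of 47.52, 30.19 and 26.11 in NC replicates 1 to 3 and lay nearest the 3′ end of 6 regions. Hras, the small GTPase that relays growth factor signals, had 67.6, 74.3 and 68.6 CPM in BE and 40.8, 37.0 and 37.7 CPM in NC. Its NC-only region (chr1:221099101-221099225) had 23.68, 14.19 and 15.88 in NC replicates 1 to 3 and lay nearest the 5′ end of 2. In the whole list 10 of 59 tested genes were higher in BE and 18 lower.

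The squamous and cornification list gave 3 hosts, Sprr1a, Cers3 and Plec, with 1 NC-only region each. Of its 62 tested genes, 45 were higher in BE and 4 lower. Sprr1a, a precursor of the cornified envelope, had 835, 874 and 1100 CPM in BE and 201, 287 and 236 CPM in NC (log2 fold change 1.96, SE 0.16, adjusted p = 9.14e-06, edgeR). Its NC-only region (chr2:212199250-212199278) was the narrowest of all at 29 bp, with a fold enrichment of 13.45, 9.34 and 16.12 in NC replicates 1 to 3. Cers3, a ceramide synthase of the epidermal barrier, had 180, 190 and 177 CPM in BE and 51.4, 67.0 and 74.6 CPM in NC. Plec, the cytolinker plectin, went the other way with 402, 560 and 514 CPM in BE and 1680, 1730 and 1440 CPM in NC.

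Cenpe, a kinesin of the kinetochore, was the 1 host on the cell cycle list and carried regions of several patterns. Among its 12 regions, 4 were BE-only, 3 were in all 6 lists and 1 was NC-only. The NC-only region (chr2:258950094-258950375) had a fold enrichment of 16.31, 13.99 and 14.78 in NC replicates 1 to 3, and no unlisted BE number fell there. Its neighbour among the regions in all 6 lists had 35.75, 40.55 and 33.70 in BE and 25.54, 18.51 and 32.91 in NC. Cenpe RNA was at 81.1, 104 and 121 CPM in BE and 35.1, 24.4 and 27.9 CPM in NC, a log2 fold change of 1.82 (SE 0.18, adjusted p = 3.88e-05, edgeR).

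**Figure D4:**
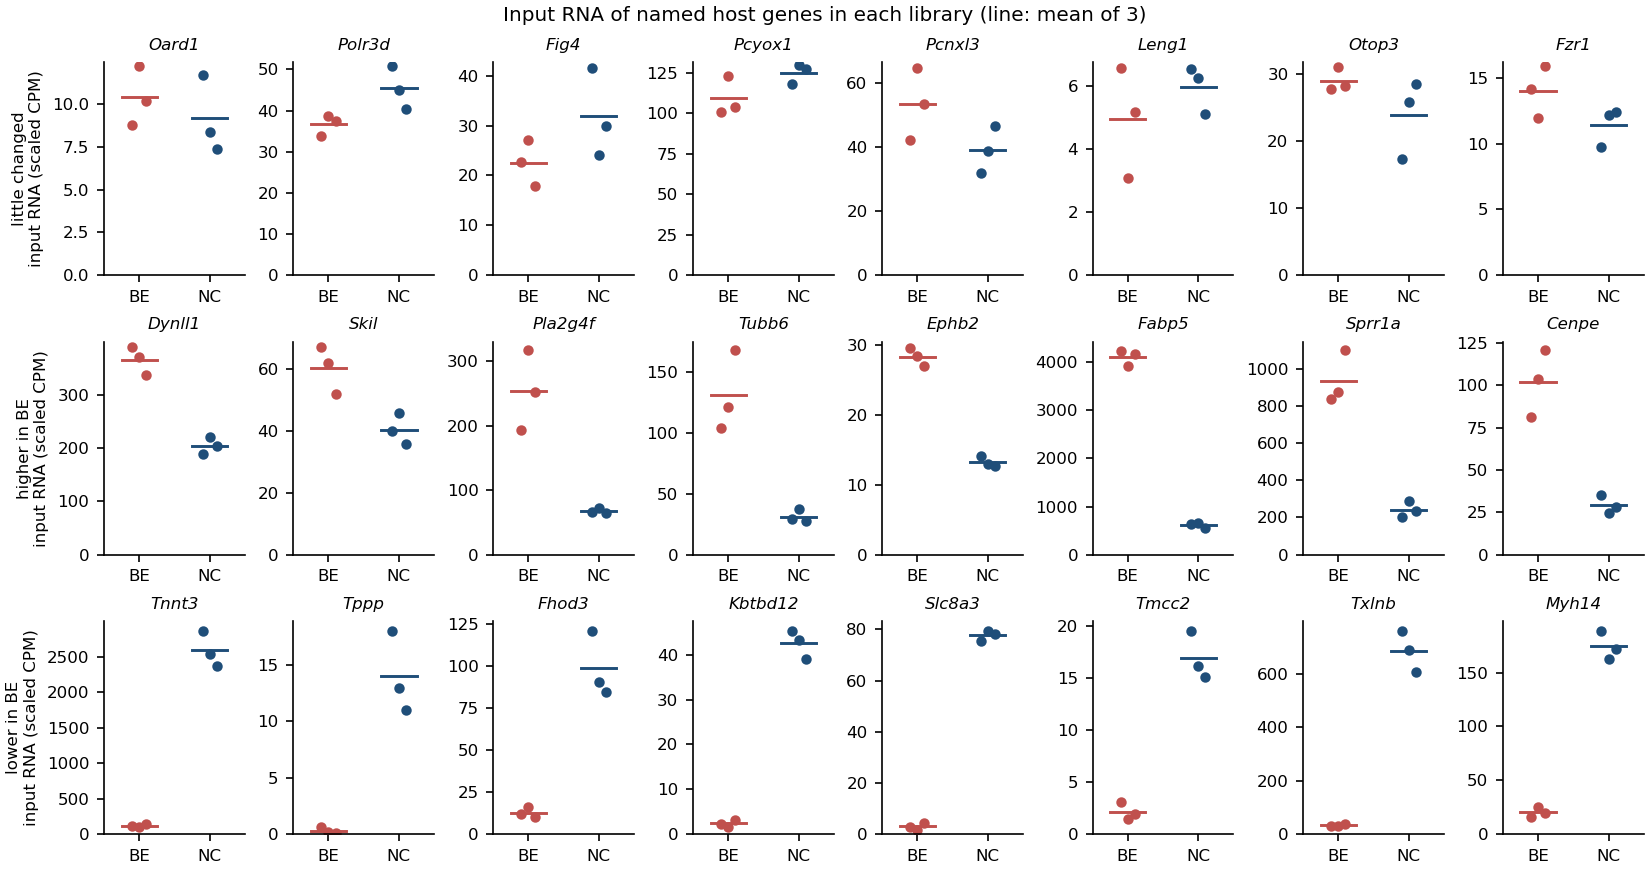
Input RNA (scaled CPM, vertical axes from 0) of 24 host genes in the 3 BE libraries (red, left) and the 3 NC libraries (blue, right) of each panel, with points for libraries and lines for means. The upper row holds genes that changed by less than 1.5-fold, such as Oard1, the middle row genes higher in BE, such as Fabp5 at 3930 to 4240 in BE and 551 to 666 in NC, and the lower row genes lower in BE, such as Tnnt3 at 100 to 143 in BE and 2370 to 2860 in NC.

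Several gene lists held no host gene. Over all genes with a peak in every list only 3.59% were hosts, so a list with none says little about its group. The listed genes with a peak in every list numbered 38 for extracellular matrix, 21 for inflammatory mediators, 69 for chromatin regulators and 59 for Wnt, Notch, Hedgehog, TGF-beta and Hippo signalling. The lists hold only some genes of each group, and other genes of these groups, such as Skil, were hosts. The columnar epithelium and immune cell lists had 5 such genes each and the endothelium list 22, again with no host. The m6A machinery list had 16 genes with a peak in every list and no host. Of its 29 tested genes, 6 were higher in BE, 2 lower and 21 did not pass. Over all genes tested, 21.8% were higher and 21.8% lower. The machinery genes named here were picked after their values were seen. The 2 lower genes were the demethylases. Fto had 38.6, 41.5 and 33.1 CPM in BE and 87.0, 70.9 and 59.4 CPM in NC (log2 fold change -0.94, SE 0.17, adjusted p = 0.00123, edgeR). Alkbh5 had 29.5, 34.3 and 29.3 CPM in BE and 39.3, 43.2 and 40.8 CPM in NC (log2 fold change -0.40, SE 0.14, adjusted p = 0.0438, edgeR). The catalytic subunit gene Mettl3 had 20.7, 20.3 and 16.3 CPM in BE and 25.1, 18.7 and 20.5 CPM in NC, which overlapped and did not pass. The reader gene Ythdf2 had 70.8, 78.0 and 68.3 CPM in BE and 46.5, 58.1 and 51.2 CPM in NC (log2 fold change 0.48, SE 0.13, adjusted p = 0.0127, edgeR).

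By the rule, every host gene had at least 1 peak in each of the 6 lists, so what follows is a description. A region found in all 6 lists lay on 220 of the 245 host genes, and the other 25 kept BE peaks only at regions that not every sample shared. The median distance from an NC-only region to the nearest region of the same gene with a BE peak was 5054 bp. It was within 1000 bp for 39 regions and within 10000 bp for 191. The largest distance was 669422 bp, and 1 NC-only region had no such region on its chromosome. For 265 of the 298 NC-only regions, each of the 3 BE lists had a peak on a transcript that the NC peaks named. No BE peak of any gene began within 100 bp of the edge of an NC-only region, counting peaks that the lists assign to other genes. Outside the NC-only regions, the host genes held 574, 548 and 572 peaks in BE replicates 1 to 3 and 554, 600 and 554 in NC replicates 1 to 3. With the NC-only regions counted, the NC lists held 852, 899 and 852 peaks on these genes. Leaving those regions out lowers only the NC counts, while BE-only regions stay in the BE counts. Similar counts therefore do not show that the other sites were unchanged. In 40 cases (13.4%) the NC-only region was the strongest region of its gene in NC.

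Both an NC-only and a BE-only region lay on 28 genes, among them Fig4, Fzr1, Pla2g4f, Tnnt3 and Cenpe. Of the 27 tested, 15 (55.6%) were higher in BE, 4 (14.8%) were lower and 8 did not pass. Over all genes tested, 21.8% were higher and 21.8% lower. The median log2 fold change of the 27 was 0.55. Each of the 28 genes held 1 NC-only region.

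Order along the gene could be read for 211 NC-only regions on 176 genes with a strand in RefSeq (GRCr8) and regions on 1 chromosome. Of these, 28.9% were nearest the 5′ end of all regions of their gene, 50.2% lay between and 20.9% were nearest the 3′ end. Regions in all 6 lists on the same host genes were nearest the 5′ end in 22.4% and nearest the 3′ end in 32.7%. For BE-only regions these shares were 23.3% and 11.6%, and 65.2% lay between. A gene with more regions has more of them between, and the number of regions per gene was not matched between the sets. Regions of a gene share its transcript and are not replicates, so the shares are descriptions. Exon, intron and untranslated region were not analysed here, since no genome of the build of the lists was used.

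**Figure D5:**
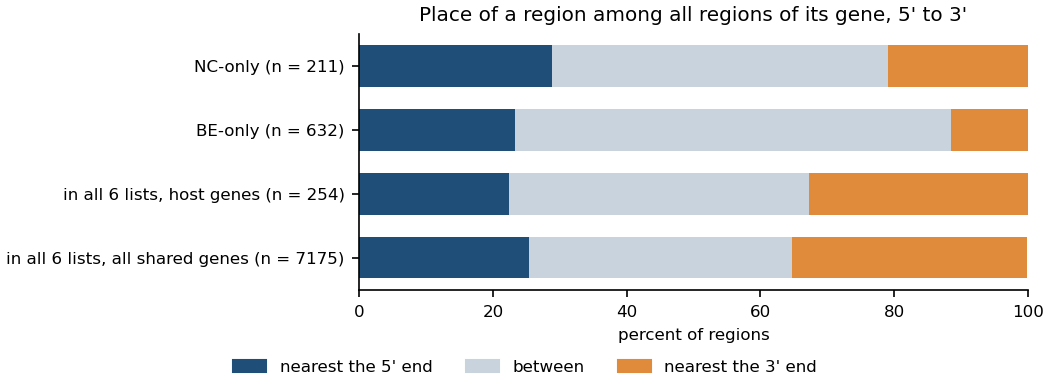
Place of each region among all regions of its gene on the strand given by RefSeq, as percent of regions (horizontal axis): nearest the 5′ end (dark blue), between (light) and nearest the 3′ end (orange). NC-only regions were nearest the 3′ end in 20.9%, BE-only regions in 11.6% and regions in all 6 lists on the host genes in 32.7%. The number of regions per gene, on which these shares depend, was not matched between the sets.

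The border of the rule was soft on the BE side and on the NC side. Another 306 regions on such genes had a peak in all 3 NC lists and in exactly 1 BE list, namely 91 in BE replicate 1, 90 in BE replicate 2 and 125 in BE replicate 3. Their median BE score was 131.8, and 111 were under 100. The best ranked of them lay on Unc50 (chr9:43726251-43726473), with a fold enrichment of 46.49 in BE replicate 3 and 69.73, 68.43 and 64.88 in NC replicates 1 to 3. The next, on Mfsd6 (chr9:53294744-53294969), had 50.58 in BE replicate 2 and 40.53, 47.42 and 41.49 in NC replicates 1 to 3. A further 374 regions had peaks in 2 NC lists and no BE list. Just inside the rule, the lowest ranked region lay on Usp13, a deubiquitinating enzyme (chr2:138937754-138937897), at 4.04, 3.18 and 4.16 in NC replicates 1 to 3. Usp13 RNA was at 16.8, 21.2 and 27.5 CPM in BE and 810, 724 and 527 CPM in NC.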

How the data were processed

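Input and m6A IP libraries of BE and NC esophagus, 3 each, were grouped by their titles. The submitters' processing notes name cutadapt 1.9.3 and HISAT2 2.0.4. Genome build, counting tool, use of strand and peak caller version are not stated in the labels or files. The authors deposited whole-number counts per gene for the 6 input libraries, which were used; 6 per-sample columns of normalized values were not used. Per the file headers, every peak of an IP list has its position, a score (10 times the negative log10 of p), the fold enrichment and a percent FDR; peak names begin with MACS. The authors' deposited score and fold enrichment ratio served to describe, rank and filter peaks within a list. The deposited FDR percent was not used. It stood at 100 for 39.3%, 36.6% and 23.5% of the peaks in the lists of BE replicates 1 to 3. In NC replicates 1 to 3 these shares were 30.6%, 26% and 25.9%. Peaks were called per sample. Coordinates count the first base as 1, assuming that the lists count from 0.

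Peaks were joined at an overlap of at least 1 bp, and genes are those named in the lists. The 6 count columns entered a fit in edgeR 4.0.16, run in R 4.3.3 (filterByExpr with a minimum of 10 counts, TMM, robust quasi-likelihood, two-sided test of BE against NC, no covariates, Benjamini-Hochberg threshold of 0.05); 13761 of 17450 genes were tested. The SE is the log2 fold change divided by the square root of F. The fit was tested on simulated data. The labels do not say whether replicate numbers pair BE with NC samples. Correlations of deviations were -0.0408, 0.00646 and -0.073 for libraries of the same number and -0.0281 to 0.0661 for the others. A lack of correlation cannot show that samples were unpaired. Host genes were matched by symbol; 4 symbols were shared by several genes, and the one with the most counts was taken. Overlapping and antisense genes cannot be told apart without strand. Since IP depth is unknown, no intervals are given for peaks.

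The regions and the 14 gene lists were chosen with earlier results of these data known. Genes named were the 10 highest ranked regions by mean percentile, the 8 highest on hosts that changed by less than 1.5-fold without passing, the 6 hosts with most regions, up to 3 hosts per list, the 4 highest on hosts at least 2-fold higher, and the 2 lowest ranked, with the 2 nearest outside the rule; the other striated muscle hosts, marker genes and the m6A machinery genes named were chosen after their values were seen. DESeq2 1.42.0, limma 3.58.1, Python 3.11.15, pandas 2.3.3, NumPy 2.4.6 and matplotlib 3.10.9 were also used. Strand came from RefSeq (GRCr8), whose last gene on chromosome 1 ends at 270492571 while the lists reach 289797684, so no coordinates were taken from it.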

Additional observations from a re-analysis of the deposited data

How the results depend on the processing

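The number of NC-only regions depended most on the peak threshold and on which lists were required. It was 297 (on 244 genes) when peaks within 100 bp were joined, 293 (240) at an overlap of at least 50 bp, 293 (247) with peaks of fold enrichment of at least 5, 228 (185) with a score of at least 100 in all lists and 272 (220) when the host needed a region in all 6 lists. Requiring a score of at least 100 only of NC peaks left 158 regions on 133 genes. At fold enrichment of at least 5, 201 of the 298 regions were overlapped, and at a score of at least 100 in all lists 136 were. Leaving out 1 list at a time gave 379 to 467 regions on 313 to 391 genes; without NC replicate 1 it was 467 on 391, over 1.5 times the number with all lists. Fewer lists make the rule easier to meet by its construction.

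Host gene counts kept within 1.5 times under every alternative: 129 to 145 lower and 32 to 37 higher, with host medians from -1.55 to -1.36. Of the 137 lower genes, 129 to 137 stayed called, and of the 36 higher ones 31 to 36. With the replicate number as a block, 136 were lower and 33 higher. Still called were 134 of the 137 and 33 of the 36. The labels do not say whether equal numbers mean paired samples. None of 374 values of named genes changed sign, and 2 passed only under an alternative, both of Pcnxl3 (0.49, adjusted p = 0.0473, with voom and quality weights, limma; 0.62, adjusted p = 0.0189, without BE replicate 1). DESeq2 called 145 lower and 36 higher.

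The planned shares of sequence motifs and of transcript parts were not run, since they need a genome of the build of the lists. Depth of the IP libraries is unknown, so absence of a BE peak is absence from a list. In 86 host genes a BE input library had under 100 counts, which limits precision there.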
